A study of Mus musculus with 8 samples.

Results

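The cytosolic ribosomal protein genes of the mouse were examined for open chromatin in unstimulated CD8-positive dendritic cells. A gene was taken when RefSeq lists it as protein coding and its symbol is Rpl or Rps followed by a digit, or Rpsa, Rplp0, Rplp1 or Rplp2, with the Rps6k kinases left out. This gave 91 genes among 21631 coding genes of the autosomes and the X chromosome. Of these, 77 encode the regular proteins of the ribosome, 46 in the large and 31 in the small subunit, and 14 are paralogues, retrogenes or other genes caught by their symbol. One of the 14, Rps19bp1, encodes a protein that binds Rps19 and is not itself a ribosomal protein. The symbol rule also leaves out some genes that do encode ribosomal proteins, such as Fau and Rack1, which are given further on as part of another list.

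Of the 8 samples in the series, the 2 used here are ATAC-seq libraries of mouse dendritic cells that received no stimulus. ATAC-seq lets a transposase cut and tag the DNA of isolated nuclei, so that reads gather where chromatin is open. The cells were grown in culture. Strain, sex and age were not given in the sources used here, one label names the spleen as the source and another a cell line, and no label says that the replicates came from separate cultures. The spread between them may therefore be technical.

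Ribosomal proteins assemble with ribosomal RNA into the large and the small subunit, and a cell needs them in nearly equal numbers. Mammalian ribosomal protein genes are known for strong, short promoters that mostly lack a TATA box, for binding of ETS factors such as GABP, of SP factors and of YY1, and for transcripts that open with a C followed by a run of pyrimidines, the terminal oligopyrimidine tract through which mTOR controls their translation. Many of them carry small nucleolar RNA genes in their introns, and the genome holds many processed copies of their mRNAs. Dendritic cells reshape protein synthesis when they are activated, and the cells studied here were in the state before that.

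Replicate 1 had 50950 peaks and replicate 2 had 58319. The median summit held 17 reads in replicate 1 and 22 in replicate 2, and the weakest listed summits held 7 and 9, so a gene without a peak had no region detectable at this depth and is not shown to be closed. A region was called shared when peaks of both replicates overlapped by at least 1 bp, which gave 44365 shared regions. Of 12 marker genes of CD8-positive dendritic cells, 11 had a shared region inside the gene or within 1 kb. Of all coding genes, 60.0% did. The exception among the 12 was Cd8a, which encodes the CD8 alpha chain. By the same measure, 3 of 3 markers of plasmacytoid dendritic cells, 1 of 2 of T cells, 1 of 3 of B cells, 1 of 3 of fibroblasts, 1 of 3 of erythroid cells and 0 of 3 of neutrophils had one. Within 1 kb of a gene end only 7 of the 12 markers of CD8-positive dendritic cells had one, or 58.3%, against 47.8% of all coding genes. Batf3, Cd8a, Clec9a, Itgae and Zbtb46 had none there. At a listed start, 5 of 10 of these markers had one, against 49.3% of coding genes. Markers of plasmacytoid dendritic cells had one in 3 of 3 at an end and in 2 of 2 at a listed start. At an end, 1 of 3 markers of B cells and 1 of 3 of fibroblasts had one, and none of T cells, neutrophils or erythroid cells. None of the markers of these last 5 cell types had one at a listed start. What other cells may add to the values below was not tested.

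The promoter windows of a few ribosomal protein genes show the letters to which the results refer. Sequences are those of RefSeq for GRCm38.p6 (mm10), read on the transcribed strand from 80 bases before the listed transcription start to 20 bases from it on. They were found for 70 of the 91 genes, and where several starts are listed the first was taken. The genes below were chosen after their values were seen, to span high and low regions. The first set shows pyrimidine runs at or near the start, in capitals, in the gene with the best-scoring region, Rpl34 (chr3:130730379-130730478, minus strand), in Rpl15 (chr14:18270967-18271066, minus strand), in Rpl27a (chr7:109519115-109519214, plus strand), in Rps6 (chr4:86857348-86857447, minus strand) and in Rpl35 (chr2:39005112-39005211, minus strand).
Rpl34: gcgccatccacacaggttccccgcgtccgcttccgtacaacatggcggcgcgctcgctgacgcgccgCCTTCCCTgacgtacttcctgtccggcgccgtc
Rpl15: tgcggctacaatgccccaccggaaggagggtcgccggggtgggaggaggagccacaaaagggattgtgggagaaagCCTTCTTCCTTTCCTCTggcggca
Rpl27a: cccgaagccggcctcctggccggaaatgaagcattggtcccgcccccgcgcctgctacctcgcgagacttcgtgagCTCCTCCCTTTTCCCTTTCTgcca
Rps6: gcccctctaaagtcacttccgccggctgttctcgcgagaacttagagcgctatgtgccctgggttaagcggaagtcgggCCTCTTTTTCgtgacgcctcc
Rpl35: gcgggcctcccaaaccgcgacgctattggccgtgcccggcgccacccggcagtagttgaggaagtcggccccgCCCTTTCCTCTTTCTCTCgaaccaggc

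The second set shows the letters CCGGAAG, the core that ETS factors such as GABP bind, in capitals. It lies just after the listed start in Rpl31 (chr1:39367771-39367870, plus strand) and before it in Rps21 (chr2:180257299-180257398, plus strand) and in Rpl38 (chr11:114668500-114668599, plus strand), which had some of the weakest regions of all.
Rpl31: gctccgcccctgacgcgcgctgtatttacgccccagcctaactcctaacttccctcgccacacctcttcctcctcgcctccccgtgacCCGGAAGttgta
Rps21: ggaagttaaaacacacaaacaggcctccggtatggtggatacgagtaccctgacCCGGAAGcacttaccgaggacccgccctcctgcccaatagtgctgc
Rpl38: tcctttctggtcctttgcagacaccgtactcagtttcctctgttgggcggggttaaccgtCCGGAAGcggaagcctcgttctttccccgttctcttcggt

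Open chromatin was found at the ends of nearly all regular ribosomal protein genes. Of the 91 genes, 80 had a shared region within 1 kb of a gene end, or 87.9%, against 47.8% of all coding genes. Counting regions anywhere inside the gene as well, 85 of 91 had one, or 93.4%, against 60.0% of all coding genes. Ribosomal protein genes are short, with a median length of 3175 bp against 17329 bp for all coding genes. Among coding genes no longer than the longest of the 91, 41.7% had a shared region at an end and 46.3% inside or within 1 kb. Taken singly, the peaks of replicate 1 reached 80 of the 91 genes, against 48.9% of coding genes, and those of replicate 2 reached 81, against 50.3%. Counting the inside of the gene, each replicate alone reached 85 of the 91, against 61.4% of coding genes in replicate 1 and 63.0% in replicate 2.

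The regular ribosomal protein genes and their copies differed in this. All 77 regular genes had a shared region inside the gene or within 1 kb, and 74 of them had it at an end. Of the 14 paralogues, retrogenes and other genes, 8 had one inside or within 1 kb and 6 had it at an end. The transcription start is listed for 70 of the 91 genes, and at 61 of these a shared region lay within 1 kb of a start, against 49.3% of coding genes with a listed start. The 61 comprise 56 of 57 regular genes and 5 of 13 others.

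The large and the small subunit were alike in the number of open genes. A shared end region was found for 44 of 46 large subunit genes and for 30 of 31 small subunit genes. The exceptions were Rpl17, Rpl19 and Rps2, and in each the region lay inside the annotated gene, more than 1 kb from its outer ends. Rpl19, a protein of the large subunit, had 2 such regions at its listed start, with deposited folds of 7.04 in replicate 1 and 5.10 in replicate 2 at the first and of 5.37 and 9.17 at the second. This fold enrichment is the authors' value for each peak, summit reads over local background reads with 1 added to both. Rps2, a small subunit protein near the mRNA entry channel, had 6.36 in replicate 1 and 6.69 in replicate 2. Both genes thus had open chromatin at the start that the annotation of gene ends missed.

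**Figure D1:**
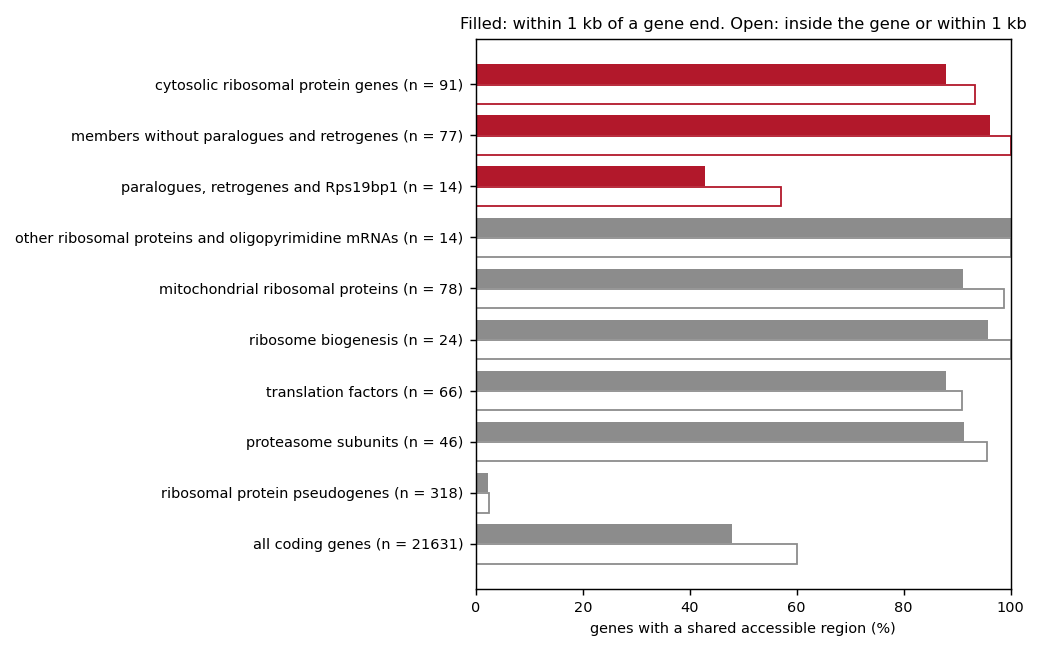
Share of genes (%) with a shared accessible region within 1 kb of a gene end (filled bars) or inside the gene or within 1 kb (open bars), for the ribosomal protein genes (red) and for comparison lists (grey). Regular ribosomal protein genes reach 96.1% at ends, their paralogues and retrogenes 42.9%, the pseudogenes 2.2% and all coding genes 47.8%.

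Other genes that serve protein synthesis and turnover had shares in the same range. A shared end region was found for 71 of 78 genes of mitochondrial ribosomal proteins, 23 of 24 genes of ribosome biogenesis, 58 of 66 translation factor genes and 42 of 46 proteasome subunit genes. It was also found for all 14 genes of a list of other ribosomal proteins and of mRNAs with an oligopyrimidine tract, among them Fau, Rack1, Tpt1 and Eef2. The share of 87.9% for the ribosomal protein genes therefore lay at the low end of these lists, and that of the 77 regular genes, 96.1%, near the top.

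The strength of the open region varied widely among the ribosomal protein genes. Over the 80 genes, the deposited fold enrichment of the best-scoring end region ran between 4.60 and 13.8 in replicate 1, with a median of 7.54, and between 4.54 and 12.6 in replicate 2, with a median of 7.78. Over the 10348 coding genes with a shared end region, the medians were 8.10 in replicate 1 and 8.42 in replicate 2. Peaks were also ranked by their −log10 q within each list, and a percentile of 100 marks the best. The median percentile was 70.5 in replicate 1 and 73.2 in replicate 2 for the ribosomal protein genes, against 73.8 and 76.2 for all coding genes. The ribosomal protein genes had an open end more often than coding genes in general, while the medians of the regions themselves were slightly lower. The medians were not tested.

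The fold has 2 parts, the reads at the summit and the background around it. The median summit of the 80 genes held 24 reads in replicate 1 and 33.5 in replicate 2, against 23 and 33 for all coding genes. The local background that the authors' fold divides by was 2.11 reads in replicate 1 and 3.14 in replicate 2 at the ribosomal protein genes, against 1.84 and 2.84 at all coding genes. The summits held about as many reads, and the background beside them was higher. The regions had a median width of 287 bp, against 292 bp.

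**Figure D2:**
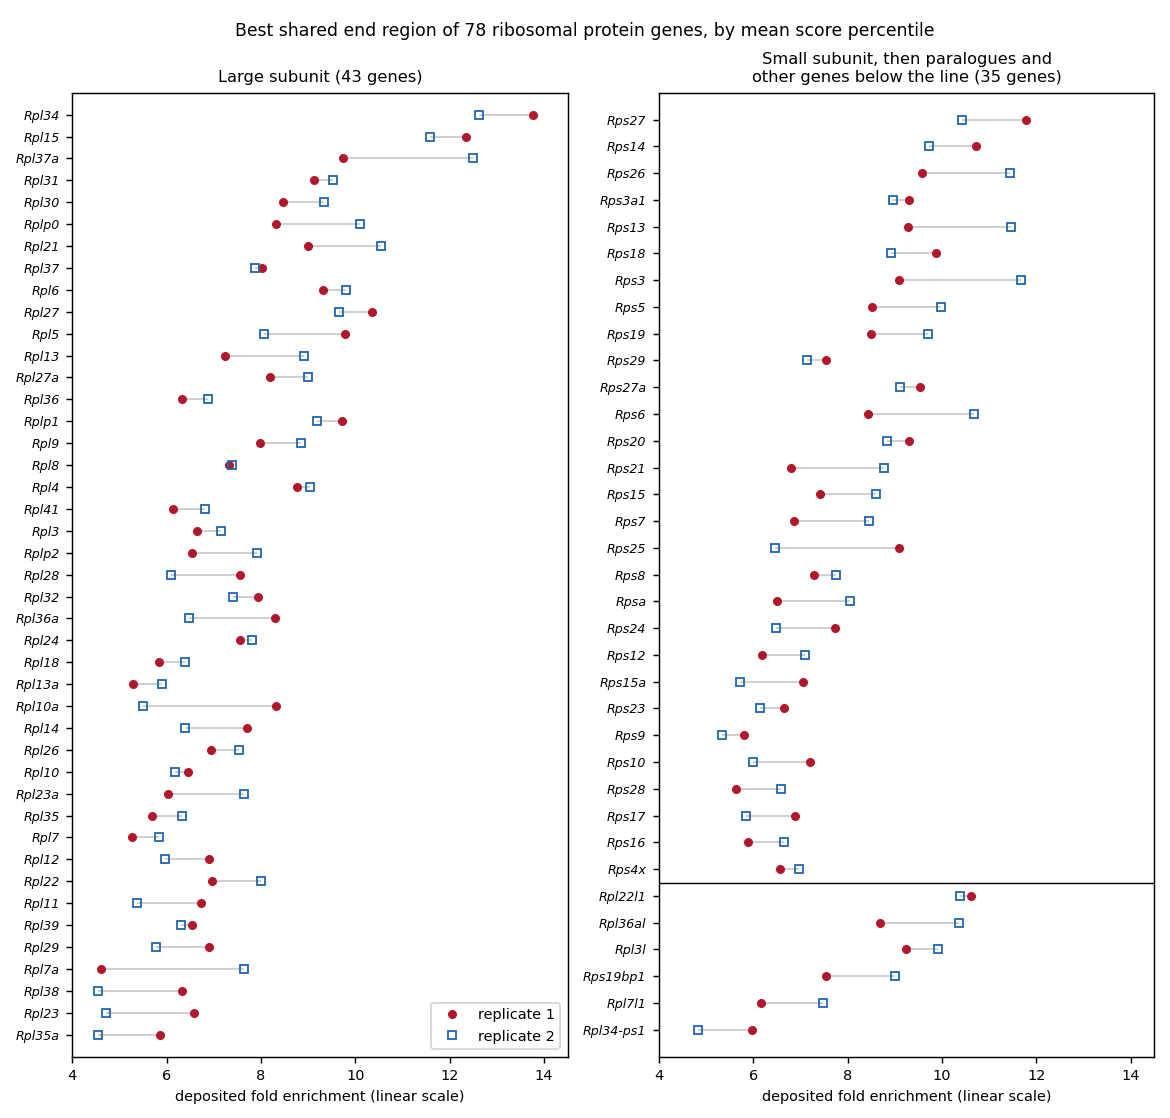
Deposited fold enrichment (linear scale) of the best-scoring shared end region of 78 of the 80 ribosomal protein genes that had one, in replicate 1 (filled circles) and replicate 2 (open squares), sorted by mean score percentile, with large subunit genes on the left and small subunit and other genes on the right. Rpl34 stands highest at 13.8 and 12.6, and Rpl35a, Rpl23 and Rpl38 lie at the low end.

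The best-scoring region belonged to Rpl34, which encodes a protein of the large subunit. Its region, at chr3:130730281-130730708 over the start shown above, reached 13.8-fold in replicate 1 and 12.6-fold in replicate 2. Its summit held 45 reads in replicate 1, with an exact 95% Poisson interval of 32.8 to 60.2, and 65 reads in replicate 2, with an interval of 50.2 to 82.8. Such intervals cover counting error only. The summits lay 23 and 4 bp before the first listed start. Both replicates placed this region above the 99th percentile of their lists.

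Other regular ribosomal protein genes were among the 8 with the best-scoring regions. Rpl15, whose long pyrimidine run is shown above, had 12.3 in replicate 1 and 11.6 in replicate 2. Rps27, a small subunit protein with a zinc finger, had 11.8 and 10.4. Rps14, a small subunit protein whose loss in humans marks the anaemia of the 5q- syndrome, had 10.7 and 9.72. The regions of Rpl15 and Rps27 also lie within 1 kb of an end of a neighbouring gene, Nkiras1 and Rab13, so they cannot be assigned to one gene alone.

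Of the 8 best, 3 were paralogues. Rpl22l1, the paralogue of Rpl22, had 10.6 in replicate 1 and 10.4 in replicate 2. Rpl36al, an autosomal copy of the X-linked Rpl36a, had 8.68 and 10.4, in a region that also reaches an end of Mgat2. Rpl3l, known as the form of Rpl3 used in heart and skeletal muscle, had 9.24 and 9.92. The region counted for Rpl3l lay 3672 bp from its nearest listed start and within 1 kb of an end of Msrb1, and no shared region was found at a listed start of Rpl3l.

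The weakest regions were those of Rpl34-ps1, Rpl35a, Rpl23, Rpl38 and Rps4x. Rpl34-ps1, listed as coding despite its name, had 5.97 in replicate 1 and 4.83 in replicate 2, with 9 and 10 reads and exact 95% Poisson intervals of 4.12 to 17.1 and 4.80 to 18.4. Rpl35a had 5.87 and 4.54, and Rpl23 had 6.59 and 4.72. Rpl38, known in the mouse embryo for its part in the translation of Hox mRNAs, had 6.33 and 4.55 at its gene end, and a further region of 6.18 and 6.55 lay inside the gene within 1 kb of a listed start. Rps4x, an X-linked gene of the small subunit, had 6.57 and 6.97. In 4 of the 5 genes the value in replicate 2 was the lower one, and Rps4x was the exception.

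The 3 proteins of the ribosomal stalk, which recruits elongation factors, were all open. Rplp0 had 8.31 in replicate 1 and 10.1 in replicate 2, and Rplp1 had 9.72 and 9.20. Rplp2 had 2 regions near its start, of 6.55 and 7.91 at the better one and of 6.82 and 5.18 at the other.

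Other large subunit proteins are known for parts in regulation or at the catalytic centre. Rpl5 and Rpl11, which together bind the p53 regulator Mdm2 when ribosome assembly fails, had 9.78 and 8.07 and, for Rpl11, 6.73 and 5.36 in replicates 1 and 2. Rpl3, which reaches towards the peptidyl transferase centre, had 6.65 and 7.16. Rpl10, one of the last proteins to join, had 6.46 and 6.18. Rpl22, needed for the development of mouse T cells, had 6.95 and 7.99 at its gene end, and 7.48 and 8.36 in a region over its listed start. Of these, only Rpl5 exceeded the median of the ribosomal protein genes in both replicates at the gene end.

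Some small subunit proteins are known from regulation or disease. Rps3, at the mRNA entry site, had 9.08 in replicate 1 and 11.7 in replicate 2. Rps6, the substrate of the S6 kinases downstream of mTOR, had 8.42 and 10.7. Rps19, mutated in Diamond-Blackfan anaemia in humans, had 8.48 and 9.70. Rps27a, made as a fusion with ubiquitin, had 9.53 and 9.11. Rpsa, also known as the laminin receptor, had 6.50 and 8.04 and was the one of these 5 genes below the median of the ribosomal protein genes in replicate 1.

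Between the subunits the level differed little. The fold had a median of 7.44 in replicate 1 and 7.59 in replicate 2 for large subunit genes, and 7.47 and 8.24 for small subunit genes. The median percentile was the higher one for large subunit genes in replicate 1, at 70.5 against 65.6, and the lower one in replicate 2, at 68.3 against 77.7. The order of the subunits thus depended on the replicate.

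The replicates ranked the genes alike but not equally. Across the 80 genes, which share the same libraries, Spearman's rho of the fold enrichment between replicates was 0.75, against 0.76 across all coding genes with a shared end region. The value was higher in replicate 2 for 44 genes and in replicate 1 for 36, with a median ratio of replicate 2 to replicate 1 of 1.05. The ratio ran between 0.661, in Rpl10a with 8.32 in replicate 1 and 5.50 in replicate 2, and 1.66, in Rpl7a with 4.60 and 7.65. For Rpl7a the summits held 14 and 29 reads. In 56 of the 80 genes, or 70%, the region was above the middle of its list in both replicates, against 72.6% over all coding genes with a shared end region. It was in the top 10% of both lists in 8, or 10.0%, against 14.2%.

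**Figure D3:**
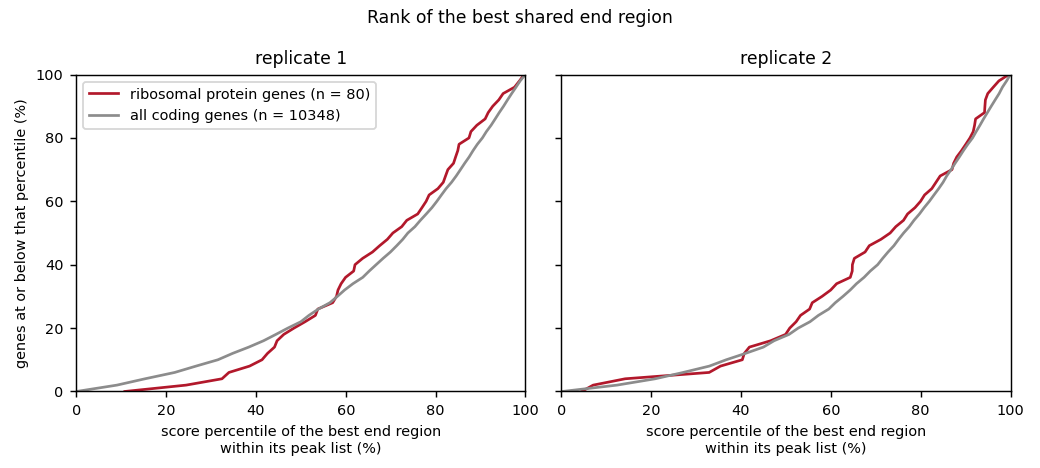
Cumulative share of genes (%) by the score percentile of their best shared end region within its peak list, for 80 ribosomal protein genes (red) and 10348 coding genes (grey), in replicate 1 (left) and replicate 2 (right). The curves run close together, with medians of 70.5 and 73.2 for the ribosomal protein genes and of 73.8 and 76.2 for all coding genes.

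The X chromosome holds 4 of the genes, Rps4x, Rpl10, Rpl36a and Rpl39, and all 4 had a shared end region, against 25.3% of coding genes of the X. Their fold had a median of 6.55 in replicate 1 and 6.40 in replicate 2, against 7.55 and 7.89 for the ribosomal protein genes of the autosomes, and 7.73 and 8.90 for coding genes of the X. Their summits held a median of 17.5 reads in replicate 1 and 22.5 in replicate 2, against 15 and 25 over all coding genes of the X with a shared end region. The copy number of the X in these cells is not known here, and its part in these values was not tested.

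Some genes had more than one open region. Of the 91 genes, 24 had 2 or more shared regions at their ends, or 26.4%, against 18.1% of all coding genes. Among genes with any shared end region the order turned, with 24 of 80, or 30%, against 37.8% of 10348. Rpl7l1, a paralogue of Rpl7, had 3 and the other 23 had 2. In Rpl34 the second region, 5.10 in replicate 1 and 5.55 in replicate 2, was much weaker than the first, whereas in Rpl39 the pair had 6.53 and 6.31 at one and 6.53 and 5.05 at the other.

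Some regions are shared between genes. For 19 of the 80 genes the best region also lay within 1 kb of an end of another coding gene. The same count over all coding genes was not made, so whether this share is unusual cannot be said. Among the regions given above this holds for Rplp2 with Pidd1, Rps27a with Clhc1, Rpl35a with Iqcg and Rpl7a with Med22. Rpl4, a large subunit protein that hosts 5 small nucleolar RNA genes, scored best at its end next to Snapc5, with 8.76 in replicate 1 and 9.05 in replicate 2. Upstream of its own start it had only 4.40 and 4.96, with 9 and 13 reads, and a peak over the start was listed in replicate 2 alone, with 8.13 and 22 reads.

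Rpl18 was the one regular gene with a listed start and no shared region within 1 kb of it. Its listed start lies inside the annotated gene, and its shared regions lay upstream of it at the 5′ end of the annotation, the better one 2527 bp away with 5.84 in replicate 1 and 6.40 in replicate 2. At the listed start, replicate 1 alone had 2 peaks of 3.6 and 4.0, with 16 and 18 reads.

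Small nucleolar RNA genes lay inside 30 of the 91 genes, 59 in all. How many coding genes in general hold such an RNA was not counted. A shared end region was found for 28 of these 30 hosts, all of them regular genes. It was found for 74 of all 77 regular genes and for 47.8% of all coding genes. The hosts' mean percentile had a median of 67.1, against 69.2 for the 47 regular genes with no such RNA inside. Both were taken over the genes with a shared end region.

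The summits sat just upstream of the transcription start. In the 61 genes with a summit within 1 kb of a listed start, the highest one lay at a median of 53 bp before it in replicate 1 and 49 bp in replicate 2, and over all coding genes at 51 and 49 bp. It was upstream in 48 of the 61 genes in replicate 1, or 78.7%, and in 49 in replicate 2, or 80.3%, against 72.2% and 73.2% over all coding genes. The summits of the ribosomal protein genes lay nearer the start: 88.5% in replicate 1 and 83.6% in replicate 2 were within 200 bp of it, against 74.7% and 75.8% over all coding genes. This difference was not tested. The nearest were those of Rpl10a, 6 and 2 bp before the start, Rps13, 9 bp after and 8 bp before it, and Rpl26, 17 bp before and 3 bp after it.

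**Figure D4:**
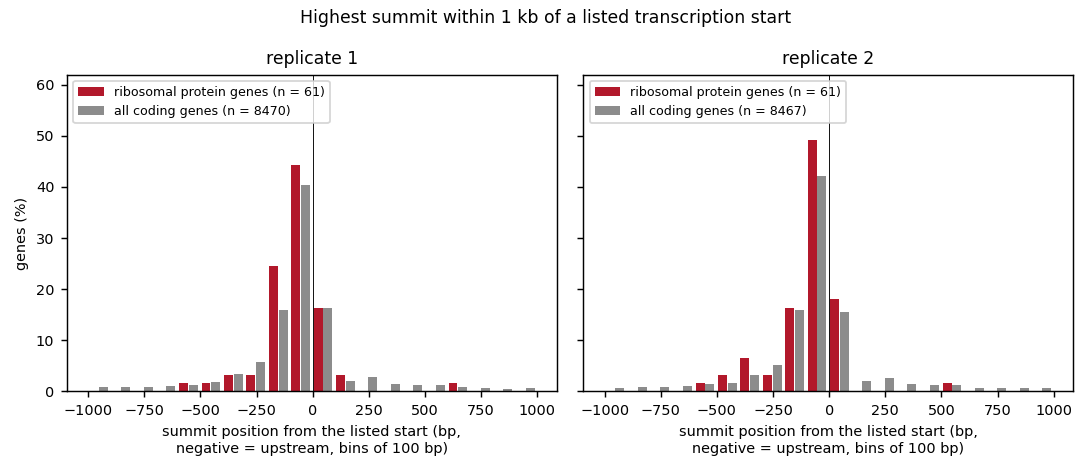
Position of the highest summit relative to the listed transcription start (bp, negative upstream, bins of 100 bp) as a share of genes (%), for ribosomal protein genes (red) and all coding genes (grey) in replicate 1 (left) and replicate 2 (right). The largest bin is that just upstream of the start in every panel and group, and the medians lie between 49 and 53 bp upstream.

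In 2 genes of each replicate, or 3.28%, the highest summit lay more than 500 bp away, against 8.89% over all coding genes in each replicate. In replicate 1 these were Rpl4, at 535 bp upstream, and Rps24, at 651 bp downstream. In replicate 2 they were Rpl7l1, at 515 bp upstream, and Rpl38, at 560 bp downstream. In Rps24, Rpl7l1 and Rpl38 the other replicate had its highest summit within 14 bp of the start, so the replicates placed it in different regions of these 3 genes. Other genes differed too: in Rpl14, Rpl19, Rpl39 and Rplp2 the highest summits of the replicates also lay in different shared regions. The median gap between the summits of the replicates was 26 bp, and the gap was over 100 bp in 14 of the 61 genes.

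The promoters of the ribosomal protein genes were rich in pyrimidine runs at the start of transcription, a count that was not tested. A C at the listed start followed by 4 pyrimidines, the form of a terminal oligopyrimidine tract, was found in 14 of the 70 genes, or 20.0%, against 2.20% of the 17274 coding genes with a window. A run of at least 10 pyrimidines touching the 25 bases on either side of the start was found in 28 of 70, or 40.0%, against 11.6%. The run is 20 bases in Rpl27a, 18 in Rpl35 and 17 in Rpl15, and in each it spans the listed start. Listed starts can miss the base used in these cells, so a tract that begins a few bases away is not among the 14.

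Letters were searched on both strands in the window from 250 bases before to 50 after the first listed start. A match is no proof of binding. CCGGAAG, for ETS factors, was present in 25 of 70 ribosomal protein genes, or 35.7%, against 12% of all coding genes. Among genes with a shared region at a start it was present in 24 of 61, or 39.3%, against 20.8% of 8510. The 25 genes held it 30 times, at a median of 56 bp before the start. Of the 30, 28 lay wholly inside a shared region, against 80.2% of 2521 over all coding genes, open at a start or not. The 2 outside were both in Rpl39l, which had no shared region at its start. Genes with these letters had start regions of a median fold of 7.08 in replicate 1 and 7.97 in replicate 2, and those without had 7.54 and 7.46, so the order again depended on the replicate.

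**Figure D5:**
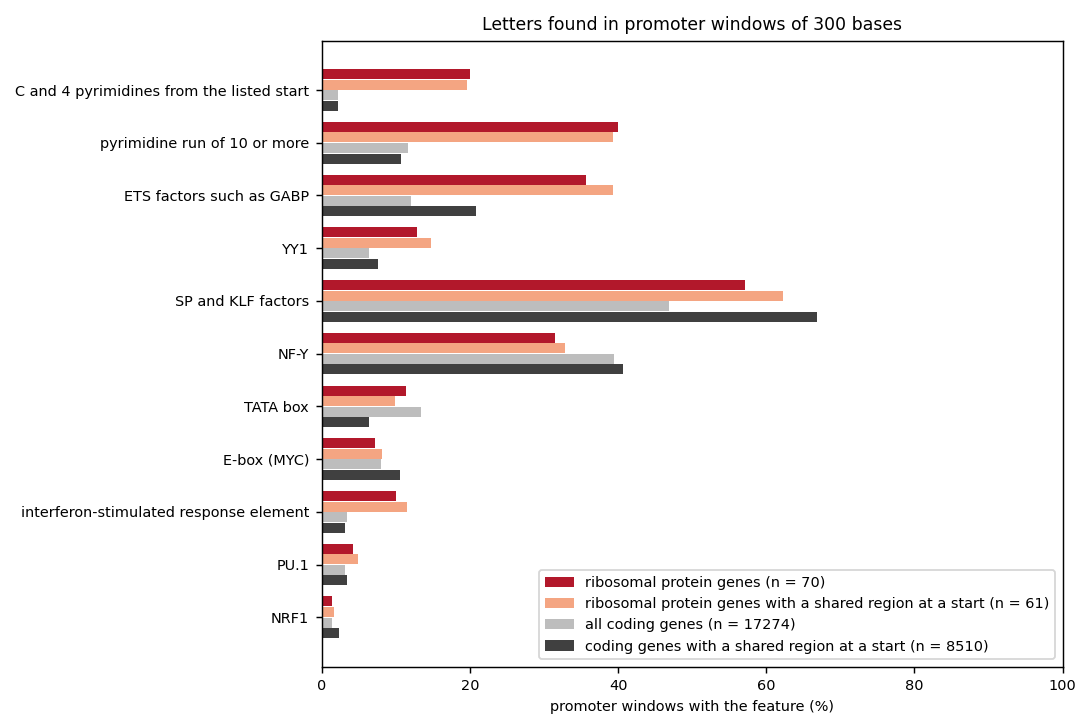
Share of promoter windows (%) with each feature, for the 70 ribosomal protein genes with a listed start (red), the 61 of them with a shared region there (orange), all 17274 coding genes (light grey) and the 8510 with a shared region at a start (dark grey). The pyrimidine features and the letters for ETS factors reach higher shares in the ribosomal protein genes, at 20.0%, 40.0% and 35.7% against 2.20%, 11.6% and 12% of all coding genes. In fewer genes, so do the letters for YY1, at 12.9% against 6.42%, and of an interferon-stimulated response element, at 10.0% against 3.43%.

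Against all coding genes, most other promoter letters differed less. Those of an interferon-stimulated response element, given below, came close to the letters for ETS factors in ratio. Among genes with a shared region at a start this order did not hold. There the letters for YY1 differed about as much in ratio as those for ETS factors. Those of an interferon-stimulated response element differed more, though in few genes. AAGATGG, for YY1, was in 12.9% of ribosomal protein genes and 6.42% of coding genes. Among genes with a shared region at a start it was in 14.8% against 7.57%. GGGCGG, for SP and KLF factors, was in 57.1% against 46.9%, and among genes with a shared region at a start in 62.3% against 66.8%. CCAAT, for NF-Y, was in 31.4% against 39.4%, and CACGTG, bound by MYC, in 7.14% against 7.99%. TATAAA was in 11.4% against 13.4%, but among genes with a shared region at a start in 9.84% against 6.35%. GAGGAAGT, for the myeloid factor PU.1, was in 3 of the 70 genes, or 4.29%, against 3.19%, and GCGC, AT and GCGC in a row, for NRF1, in Rpl37a alone, or 1.43%, against 1.34%, but among genes with a shared region at a start in 1.64% against 2.36%. GAGGAAGT and CCGGAAG share the letters GGAAG, and on one strand the same GGAAG cannot belong to both. The 9 genes with a listed start and no shared region there had a median of 9 CG dinucleotides in the window, against 22 in the 61 with one. All of the 9 but Rpl18 are paralogues or retrogenes, and Rpl18 had 26. The median was also 22 over coding genes with a shared region at a start, and 14 over all coding genes.

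The series is about interferon regulatory factors, and the letters of an interferon-stimulated response element were therefore counted as well. GAAA, any 2 bases and GAAA again were found in 7 of the 70 genes, or 10.0%, against 3.43% of all coding genes. Among genes with a shared region at a start the shares were 11.5% and 3.18%. The 7 genes were Rpl4, Rpl5, Rpl27a, Rpl38, Rps7, Rps19 and Rps23. All 7 had a shared region at a start, against 45.8% of the 592 coding genes with these letters. All are regular genes, and 56 of the 57 regular genes with a listed start had such a region, with or without the letters. The count of 7 thus does not set these genes apart from other regular genes. The letters lay wholly inside a shared region in Rpl27a, Rpl38, Rps19 and Rps23, so 4 of 7 did. Over all coding genes, open at a start or not, 28.7% of 645 matches did. Only in Rpl27a and Rps19 did the peaks of both replicates cover the letters. In Rpl38 and Rps23 the peak of replicate 2 alone covered them, as in Rpl4, where that peak was not shared. In Rpl5 and Rps7 no peak did. In Rpl4, Rpl5, Rpl27a and Rps7 the letters stand on the opposite strand, where they read as pyrimidines on the transcribed one, and in Rpl27a they are part of the pyrimidine run shown above. Rps19 came nearest to a summit, with the letters 1 bp and 4 bp from the summits of replicates 1 and 2. The windows around the letters, in capitals, are shown for Rps19 (chr7:24884397-24884446, plus strand), Rps23 (chr13:90922941-90922990, plus strand) and Rpl38 (chr11:114668459-114668508, plus strand), which hold them on the transcribed strand.
Rps19: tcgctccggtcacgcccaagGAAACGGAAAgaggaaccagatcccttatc
Rps23: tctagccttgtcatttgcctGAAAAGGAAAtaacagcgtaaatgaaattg
Rpl38: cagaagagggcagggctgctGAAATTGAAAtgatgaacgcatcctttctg

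Among the 14 paralogues, retrogenes and other genes, 8 had a shared region inside or within 1 kb, or 57.1%, against 60.0% of all coding genes. The 6 genes without one were Rpl10l, Rpl31-ps12, Rpl32l, Rpl39l, Rps23rg1 and Rps27rt. Rpl10l and Rpl39l are known as the testis forms of Rpl10 and Rpl39. The nearest shared region was 151988 bp away from Rpl10l, 50430 bp from Rpl31-ps12, 37741 bp from Rpl32l, 17885 bp from Rpl39l, 8641 bp from Rps23rg1 and 3256 bp from Rps27rt. Rpl37rt had no shared region at an end and a weak one inside, of 5.04 in replicate 1 and 6.59 in replicate 2, 2418 bp from its listed start, and a peak of 6.17 at an end in replicate 2 alone. No source used here says how reads that match several copies were placed, so for near-identical copies a missing region cannot be told apart from reads that were left out.

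Rps27rt and its parent Rps27 show what such a copy shares. The pair is given from 60 bases before the listed start to 25 from it on, at chr9:114982715-114982799 and at chr3:90213624-90213708, both on the minus strand, with the shared run in capitals.
Rps27rt: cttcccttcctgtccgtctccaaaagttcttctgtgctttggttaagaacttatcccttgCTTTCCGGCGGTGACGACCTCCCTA
Rps27: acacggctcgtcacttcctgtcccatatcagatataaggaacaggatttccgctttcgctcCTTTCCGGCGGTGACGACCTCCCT
The run is 38 bases long within the window and begins at base 1 of the listed transcript of Rps27rt and at base 2 of that of Rps27. Upstream of the starts the longest run the 2 share is 10 bases. Rps27rt had no region, while Rps27, with 11.8 in replicate 1 and 10.4 in replicate 2, was among the best.

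Of 7 pairs of a paralogue and its parent, both were open in 5, counting regions inside the gene or within 1 kb, and the parent was open in all 7. By the same measure 60.0% of all coding genes were open, and all 77 regular genes. The open paralogues were Rpl3l, Rpl7l1, Rpl22l1, Rpl36al and Rps27l, and the others were Rpl10l and Rpl39l. At a listed start, 4 of the 7 paralogues had a shared region, against 49.3% of coding genes with a listed start. The region of Rpl3l lay 3672 bp from its nearest start and next to Msrb1. Rpl22l1 had the stronger region of its pair, with 10.6 in replicate 1 and 10.4 in replicate 2, against 6.95 and 7.99 at the end of Rpl22. Rpl36al had 8.68 and 10.4, against 8.29 and 6.48 for Rpl36a. Rps27l, a paralogue of Rps27 induced by p53, had 9.97 and 7.66 at its listed start, against 11.8 and 10.4 for Rps27. Rpl7l1 had 6.15 and 7.46, against 5.27 and 5.83 for Rpl7, whose region also reaches an end of Rdh10.

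Annotated pseudogenes of ribosomal proteins were rarely open. Of 318, 7 had a shared region within 1 kb of an end, or 2.2%, and 8 inside or within 1 kb. The region at Rpl48-ps1 was strong in both replicates, with 11.8 in replicate 1 and 11.7 in replicate 2. The others at ends were Rps27a-ps1, Rpl21-ps1, Rpl29-ps1, Rpl10-ps2, Rps18-ps3 and Rps2-ps7, with values between 5.71 and 13.6, and the one inside was Rpl21-ps10. The limit stated above on reads that match several copies holds here too.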

How the data were processed

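The 2 ATAC-seq peak lists deposited by the authors were used, one for each replicate. MACS2, HOMER 4.9.1, Picard 2.8.1, BWA 0.7.17, Trimmomatic and the build mm10 are named in the submitters' processing notes. Their roles, the shift of reads for the transposase, the removal of duplicates and the threshold are not given in the sources used here, and each affects which weak peaks appear. The authors' fold enrichment, −log10 p, −log10 q and score are deposited for each summit, and were used only to describe and rank peaks within a list. The lowest deposited −log10 q was 3.00 in both lists.

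Summits of a peak were joined, keeping the best. Summit read numbers were derived from the deposited fold and −log10 p and came back whole for 100% of summits (tolerance 0.002 in −log10 p). The depth of the libraries is otherwise unknown. The lowest local background of any summit was 0.676 reads in replicate 1 and 1.28 in replicate 2, so folds of the 2 lists are not strictly on one scale. Genes, starts and promoter windows came from RefSeq GRCm38.p6, which has the chromosomes of mm10. Starts and strand were found for 70 of 91 genes and were not used here for the others. Beyond these windows, no genome or protein sequence was used. The windows were 1 kb.

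Both samples form 1 group, so no groups were compared and no test across samples was made. Counts are set beside the same count over all coding genes, which include the ribosomal protein genes. The members and all lists were chosen with earlier results of these data known. Genes were named when they had no region or a peak in 1 replicate only, ranked among the 8 highest or 5 lowest by mean percentile, had several end regions, had summits nearest to or over 500 bp from the start, belonged to a paralogue pair or are textbook proteins. For those with several end regions only examples are named. A few genes that meet the rule are not reported here, and the plot by gene leaves out 2. Alternatives were a window of 500 bp or 2 kb, reciprocal overlap of 50%, the better-scoring 50% of each list, the union, each replicate alone, and leaving out paralogues and retrogenes. The scripts were tested on simulated data. Python 3.11.15, numpy 2.4.6, scipy 1.17.1, pandas 2.3.3 and matplotlib 3.10.9 were used.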

Additional observations from a re-analysis of the deposited data

How the results depend on the processing

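Of 38 alternatives, 34 left the value within the limit set for it, which was 1.5 times for a count and the spread between the replicates for a median. The limit for a count is wide. The 2 kb window and the union can only add genes, and 1.5 times each count exceeds the genes available, so these alternatives could not leave it. Leaving out paralogues and retrogenes removes too few genes to leave it. The list of a single replicate holds the peaks of the shared regions, so its counts could hardly fall. For the summit position the median of each replicate lies within the limit by construction, and for the fold and percentile nearly so. The number within the limit is therefore no measure of support. With the better-scoring 50% of each list, 40 of 70 genes with a listed start kept a shared region there, against 61 with all peaks, and 36.5% of coding genes did, against 49.3%. The same step lowered the end count from 80 to 56 of 91, or 61.5%, against 34.8% of coding genes. It lowered the count inside or within 1 kb from 85 to 59 of 91, or 64.8%, against 46.3%. Both falls stayed within the limit. Taking the region nearest the start in place of the best-scoring one gave a median fold of 7.46, against 7.66 as the mean of both replicates, and a median percentile of 65.8, against 71.8, over 60 genes. Taking the nearest summit moved its median position to -29.5 bp from the start, against -51 bp. Leaving out either replicate gave counts of 80 to 81 genes with an end region, 61 to 62 with a start region and 85 with a region inside or within 1 kb, and medians of 7.55 to 7.75 for the fold, 72.0 to 72.7 for the percentile and -53 to -49 bp for the summit. The medians of each replicate alone, and the count of promoter letters over every listed start, in which 32.9% of 82 windows held the letters for ETS factors, were added after seeing the data.

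No paired analysis was possible because both samples with files belong to 1 group. With weakest listed summits of 7 and 9 reads, the region of Rpl34-ps1, with 9 and 10 reads, lies near what this depth can show.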
